A study of Rattus norvegicus with 47 samples.

Results

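Tubular injury markers are genes that kidney tubule cells switch on, or that injured and inflamed kidney tissue carries, when the tubule is damaged. Of 32545 genes in the count tables, 7 such genes were followed: *Havcr1* (ENSRNOG00000007243), *Lcn2* (ENSRNOG00000013973), *Spp1* (ENSRNOG00000043451), *Cd44* (ENSRNOG00000006094), *Clu* (ENSRNOG00000016460), *Vim* (ENSRNOG00000018087) and *Vcam1* (ENSRNOG00000014333). They were chosen by name, with earlier results of these data known, and found through the gene symbols that the deposited tables pair with Ensembl identifiers for 9237 genes. Since those tables list genes called changed in some comparison, this is not an unselected set. RNA was sequenced from the kidney cortex of rats in 3 studies of different length (14 days, 28 days or 6 months). The study's methods name male Wistar rats for the short studies and give no strain or sex for the 6-month study. In each there were lithium-amiloride (LiAM) rats, given lithium in chow (60 mM in the labels) and 0.2 mM amiloride in the drinking water, lithium (Li) rats, given the same lithium alone, and control rats on plain chow. The study's methods state the lithium dose per weight of dry food instead, with a lower dose in the first week of the short studies. They also give all lithium rats a salt block, which control rats are not said to have had. Amiloride started together with lithium in both short studies, and later than lithium in the 6-month study. The deposited libraries number 47, of which 44 entered the comparisons: 5 LiAM, 6 Li and 6 control at 14 days, 5, 6 and 6 in the same order at 28 days, and 3 labelled LiAM, 3 labelled Li and 4 labelled control at 6 months. The 3 others (14-day LiAM 2, and the 6-month libraries labelled Li 4 and LiAM 4) were left out by the authors because they did not group with their treatment, and their values are given beside the results. The labels do not state that each library came from a separate animal, although the study's methods give 6 rats a group in the short studies.

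At 6 months the labels and the authors' tables name the groups differently. Of 6 ways to assign the 3 treatments to the 3 labelled groups, 1 gave all 6057 listed fold changes the sign they have in the authors' tables (100% in each of the 3 tables). In that assignment the libraries labelled control are Li, those labelled Li are LiAM, and those labelled LiAM are control, whereas the labels as given matched the sign of 4.48 to 31.7% of the entries. Groups are called by their labels here, with the name in the authors' tables beside them, because no file states which is right. Levels that bear on the naming, of principal cell markers and of *Krt18*, are given with the cell type markers below.

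As background, *Havcr1* encodes KIM-1, a surface receptor by which injured proximal tubule cells take up dying neighbours. *Lcn2* encodes NGAL, a secreted carrier of iron-binding siderophores that damaged tubules, above all of the distal nephron, release. *Spp1* encodes osteopontin, a secreted ligand of integrins and of CD44, and *Clu* encodes clusterin, a secreted chaperone. *Cd44* is a receptor for hyaluronan and osteopontin on regenerating epithelium and on leukocytes. *Vim* encodes vimentin, the intermediate filament protein of mesenchymal and endothelial cells that dedifferentiating tubule cells also make, and *Vcam1* an adhesion molecule of endothelium and of tubule cells that fail to recover, bound by the integrin that contains *Itga4*. Lithium enters principal cells of the collecting duct through the epithelial sodium channel, which amiloride blocks. In whole cortex, a change in the share of a cell type and a change of RNA per cell cannot be told apart.

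RefSeq promoters of the GRCr8 assembly matched 6 of the 7 genes. The 250 bases before the start are shown for *Lcn2* (chr3:36081781-36082030 on the minus strand) and *Vcam1* (chr2:206742784-206743033 on the minus strand), a pair known to respond to inflammation whose levels were not alike here, and for *Havcr1* (chr10:31629528-31629777 on the plus strand) and *Spp1* (chr14:5619805-5620054 on the minus strand), which had the highest r of any pair of the 7 over all 44 libraries (0.80 once each study's mean was taken off, as had *Lcn2* with *Spp1* after rounding). Capitals mark matches, on either strand, to the NF-kB consensus or to the TATA box TATAAA.
Lcn2: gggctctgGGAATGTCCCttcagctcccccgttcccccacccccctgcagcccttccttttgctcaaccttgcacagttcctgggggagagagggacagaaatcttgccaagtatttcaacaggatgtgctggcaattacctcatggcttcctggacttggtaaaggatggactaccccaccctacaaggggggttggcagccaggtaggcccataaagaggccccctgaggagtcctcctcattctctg
Vcam1: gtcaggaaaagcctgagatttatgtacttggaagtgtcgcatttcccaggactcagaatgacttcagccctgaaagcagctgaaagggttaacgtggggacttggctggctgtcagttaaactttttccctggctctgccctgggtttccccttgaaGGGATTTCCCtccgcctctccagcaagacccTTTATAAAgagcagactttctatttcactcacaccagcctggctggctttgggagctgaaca
Havcr1: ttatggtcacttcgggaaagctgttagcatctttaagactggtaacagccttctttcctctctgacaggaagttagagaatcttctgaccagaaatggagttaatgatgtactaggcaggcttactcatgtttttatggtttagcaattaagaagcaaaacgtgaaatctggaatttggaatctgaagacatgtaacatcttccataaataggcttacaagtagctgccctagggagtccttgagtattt
Spp1: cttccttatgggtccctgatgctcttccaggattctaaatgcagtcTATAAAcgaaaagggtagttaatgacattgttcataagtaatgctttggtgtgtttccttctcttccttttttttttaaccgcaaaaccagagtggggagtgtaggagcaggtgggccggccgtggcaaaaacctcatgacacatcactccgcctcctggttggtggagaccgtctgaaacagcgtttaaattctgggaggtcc
An NF-kB match lay in the *Lcn2* (bases -242 to -233 from the start), *Vcam1* (-93 to -84) and *Vim* (-193 to -184) windows, and 3.54% of 33469 promoter windows of the same length held one. A TATAAA match lay in the *Spp1*, *Vim* and *Vcam1* windows and in 12.9% of all windows, and in *Vcam1* the matches on both strands overlapped. Neither the AP-1 motif TGANTCA (6.34% of windows) nor the STAT motif TTCNNNGAA (7.67% of windows) was found in the 6 windows. These matches describe letters only.

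The 14-day libraries held 10399818 to 15618395 counted reads each, the 28-day libraries 14779709 to 17554304, and those of the 6-month study 21245870 to 25415685. Levels are CPM, a library's counts of a gene as a share of its scaled total, set within each study, so that a level of 1 study is only roughly comparable with a level of another. *Havcr1* and *Lcn2* were low (from 4 and 31 counts per library upwards), and *Spp1* had 553 to 19378 counts. Transcripts of the mitochondrial genome took 31.9% (median) of the counts in 28-day control libraries, against 17.3% in LiAM and 19.7% in Li libraries of that study. Control 1 stood apart in its group at 18.2%. At 14 days the medians were 15.8, 15.2 and 15% in LiAM, Li and control. Genes counted as called where the quasi-likelihood test of edgeR gave an adjusted p (Benjamini-Hochberg, over all genes tested) under 0.05 and the log2 fold change was 0.5 or more in size. Every adjusted p below is of that kind.

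After 14 days, 6 of the 7 markers were higher in Li than in control cortex, in a comparison that called 12.1% of 14179 genes. Among the secreted proteins, *Lcn2* measured 5.03 to 15.5 CPM (median 11.1) in the 6 Li libraries and 2.58 to 3.61 CPM (median 3.04) in the 6 control libraries. The groups did not overlap, and Li stood 3.63-fold higher (log2 1.86, SE 0.23, adjusted p = 1.08e-05). *Spp1* ranged over 337 to 1163 CPM (median 624) in Li libraries, against 125 to 292 CPM (median 221) in control libraries, a log2 fold change of 1.61 (SE 0.30, adjusted p = 0.00067). *Clu* was 120 to 210 CPM in Li and 61.6 to 130 CPM in control libraries, with 1 control library (control 4, at 130 CPM) inside the Li range (log2 1.0, SE 0.17, adjusted p = 0.000291).

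Of the surface proteins, *Havcr1* changed most in size. It measured 1.35, 18.6, 6.18, 13.1, 7.26 and 4.22 CPM in Li libraries 1 to 6, against 0.750 to 1.22 CPM (median 0.973) in control libraries, 8.65-fold higher (log2 3.11, SE 0.49, adjusted p = 0.000131). Every Li library lay above every control library, but Li 1 only just, and the highest Li library held 13.7 times the level of the lowest. *Cd44* was steadier, at 28.2 to 45.6 CPM (median 35.7) in Li libraries and 6.20 to 9.46 CPM (median 7.35) in control libraries, 4.92-fold higher (log2 2.30, SE 0.14, adjusted p = 1.21e-09). *Vcam1* did not pass the test, with 24.4 to 40.1 CPM in Li and 27.8 to 39.5 CPM in control libraries (log2 -0.04, 95% interval -0.26 to 0.18). The filament gene *Vim* was 106 to 150 CPM (median 117) in Li and 59.9 to 80.7 CPM (median 64.7) in control libraries (log2 0.85, SE 0.09, adjusted p = 2.41e-06). The median log2 fold change of the 7 was 1.61, beside 0.0003 over all genes tested. Among the 8862 genes tested that have a symbol, as the 7 do, 17.9% were called. Since the 7 were chosen with such results known, these shares describe the set and say nothing of how it stands among other genes.

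The same 6 markers were lower in LiAM than in Li cortex at 14 days, where the comparison called 2.19% of the genes, 112 of them higher and 199 lower. The Li libraries enter both comparisons, so that the 2 sets of differences are not independent. *Lcn2* measured 3.88, 3.59, 2.98, 2.79 and 5.50 CPM in the 5 LiAM libraries, 2.95-fold below Li (log2 -1.56, SE 0.24, adjusted p = 0.000821). *Spp1* measured 120, 189, 50.1, 107 and 184 CPM, all below the lowest Li library (log2 -2.31, SE 0.33, adjusted p = 0.000524). *Clu* measured 110, 87.7, 79.0, 79.7 and 81.3 CPM, again below every Li library (log2 -0.87, SE 0.18, adjusted p = 0.0102).

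For *Havcr1*, the LiAM libraries held 0.971, 0.944, 0.464, 0.454 and 1.77 CPM, 9.10-fold below Li (log2 -3.19, SE 0.52, adjusted p = 0.0016). LiAM 6 reached above Li 1, the lowest of its group, so the groups overlapped in that pair. *Cd44* behaved differently in size: 31.8, 25.6, 22.2, 23.0 and 20.2 CPM in LiAM libraries, 1.49-fold below Li (log2 -0.57, SE 0.13, adjusted p = 0.0187). That call was lost without LiAM 4, 5 or 6, with an adjusted p of up to 0.0594. *Vim* was 68.9 to 91.7 CPM in LiAM libraries, below every Li library (log2 -0.62, SE 0.10, adjusted p = 0.00121). It was lost when the left-out LiAM 2 was put back (adjusted p = 0.525). That library held 210 CPM, the highest *Vim* level of all 47. *Vcam1* stood at 24.5 to 33.1 CPM in LiAM libraries and did not pass the test (log2 -0.16, 95% interval -0.39 to 0.08).

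Set against control at 14 days, LiAM cortex differed in 1 marker, *Cd44*, at 20.2 to 31.8 CPM in LiAM and 6.20 to 9.46 CPM in control libraries (3.30-fold higher, log2 1.72, SE 0.14, adjusted p = 1.26e-07). The comparison called 8.32% of the genes. The 6 other markers missed the test, with 95% intervals of -1.31 to 1.16 for *Havcr1*, -0.20 to 0.80 for *Lcn2*, -1.33 to -0.08 for *Spp1*, -0.22 to 0.49 for *Clu*, 0.04 to 0.43 for *Vim* and -0.43 to 0.03 for *Vcam1* (log2). The width of the *Havcr1* interval leaves even sizeable differences in either direction undetectable at these counts (7 to 28 per library in LiAM and 9 to 16 in control). *Spp1* was on the low side, with a mean of 130 ± 57.8 CPM in LiAM (SD, n = 5) and 212 ± 59.3 CPM in control (SD, n = 6).

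**Figure D1:**
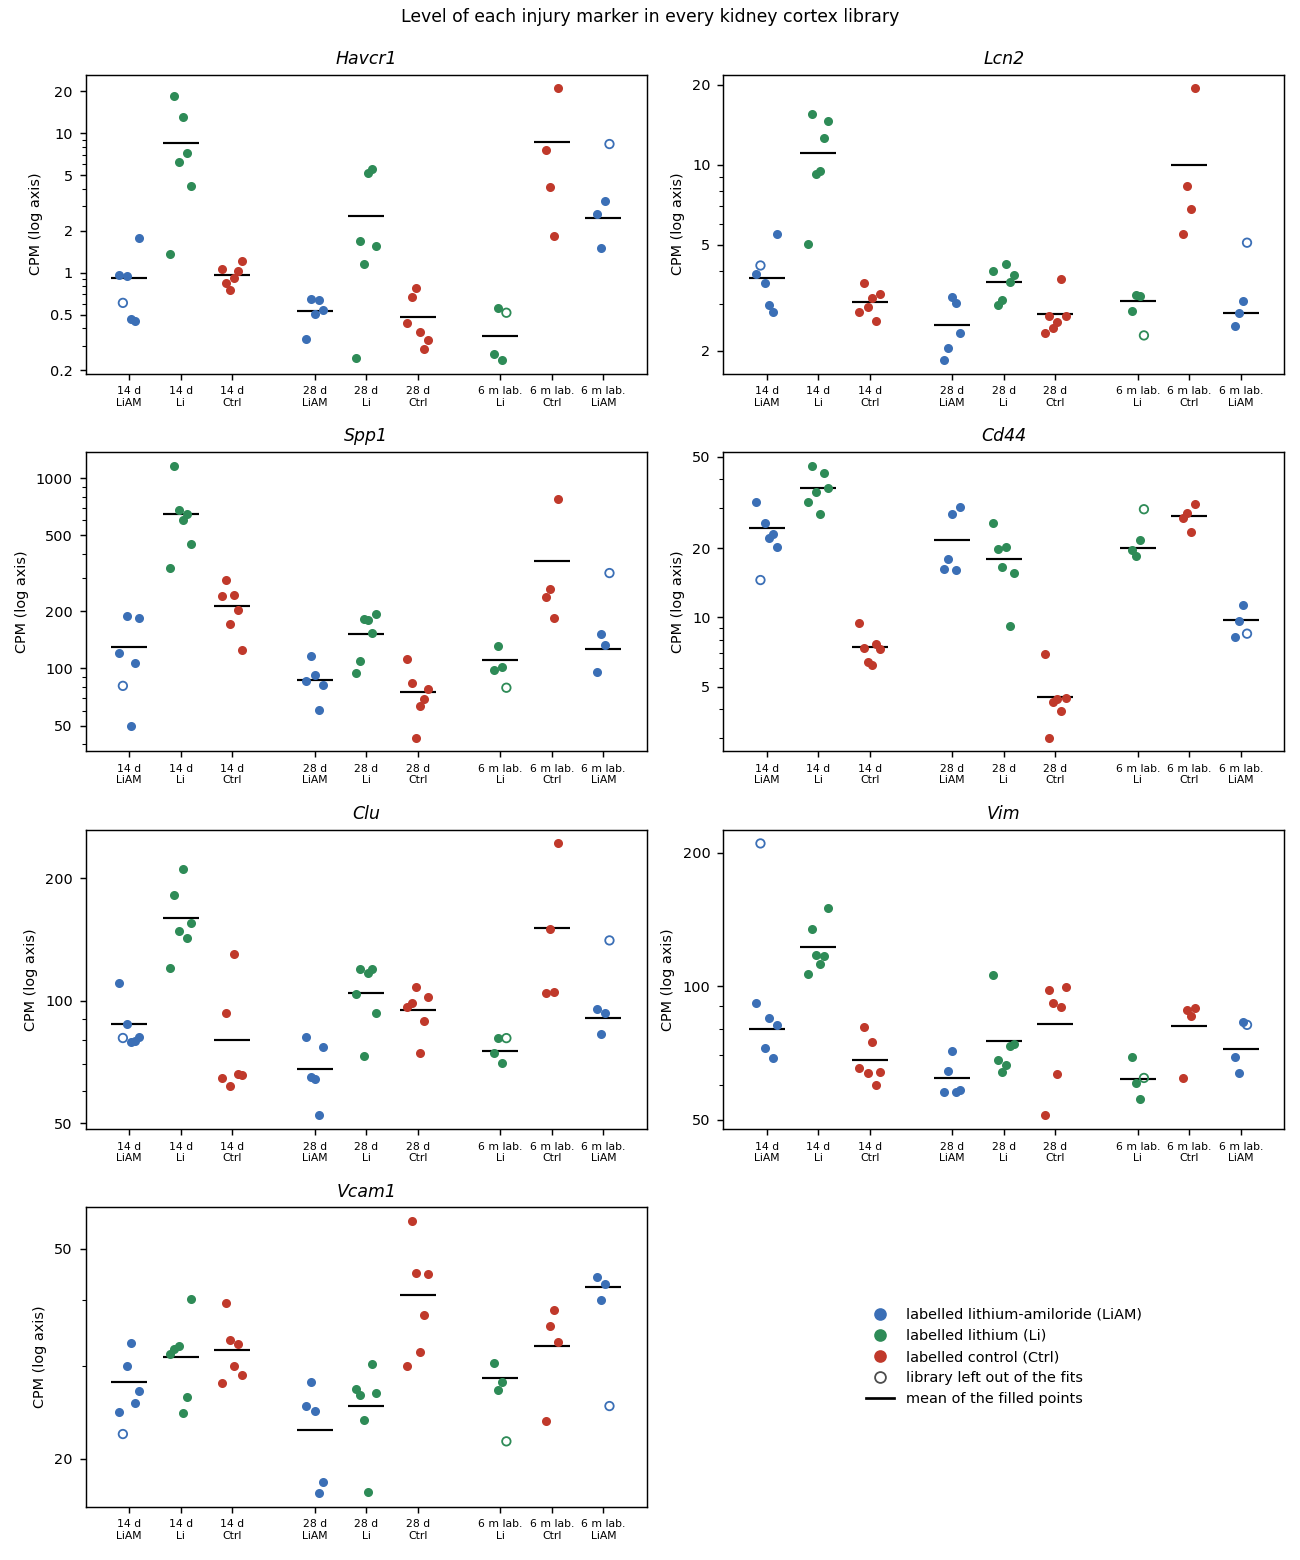
Level of each of the 7 markers in CPM (log axis) in every library, by labelled group and study, with open circles for the 3 libraries left out of the comparisons and a bar at the mean of the others. At 14 days *Lcn2* is higher in each of the 6 Li libraries than in any control library, and *Cd44* stays above control in each of the 5 LiAM libraries, at 20.2 to 31.8 CPM.

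After 28 days, 3 markers were higher and 1 lower in Li than in control cortex, in a comparison that called 9.07% of 14140 genes. *Cd44* had 9.19 to 25.7 CPM (median 18.2) in Li and 3.0 to 6.94 CPM (median 4.37) in control libraries, without overlap (3.92-fold higher, log2 1.97, SE 0.25, adjusted p = 5.21e-05). *Havcr1* measured 0.244, 1.69, 1.15, 5.17, 5.56 and 1.54 CPM in Li libraries 1 to 6 and 0.286 to 0.783 CPM in control libraries (5.31-fold higher, log2 2.41, SE 0.55, adjusted p = 0.00672). Li 1 lay below every control library, at 4 counts, and the other 5 Li libraries above all of them. *Spp1* was 94.2 to 193 CPM (median 168) in Li and 43.3 to 112 CPM (median 73.4) in control libraries (log2 1.02, SE 0.21, adjusted p = 0.0039).

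*Vcam1* was the marker that fell. It measured 17.3 to 30.2 CPM (median 26.6) in Li libraries, against 30.0 to 56.4 CPM (median 41.1) in control libraries, overlapping by 1 library each (log2 -0.70, SE 0.16, adjusted p = 0.00762). *Lcn2* (2.97 to 4.24 CPM in Li, 2.33 to 3.72 CPM in control) did not pass the test (log2 0.41, adjusted p = 0.0778), except without control 5 (0.51, adjusted p = 0.0371). *Clu* had a log2 fold change of 0.14 (95% interval -0.11 to 0.39) and *Vim* of -0.13 (95% interval -0.42 to 0.17). The *Vim* levels spread over 51.2 to 99.6 CPM among control libraries, with control 1 lowest, and Li 1 stood at 106 CPM above the other Li libraries (64.2 to 74.1 CPM). Li 1 was also the library with the highest summed level of 3 adipocyte markers (165 CPM, against a group median of 14.0 CPM), and its part in the *Vim* level was not tested.

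LiAM and Li cortex differed in few genes at 28 days: 0.438% of the genes were called, and *Clu* was the 1 marker among them. Its levels were 81.5, 64.9, 64.3, 52.3 and 77.1 CPM in LiAM libraries and 73.3 to 120 CPM (median 111) in Li libraries (log2 -0.62, SE 0.13, adjusted p = 0.0399). This call was lost in 11 of 18 alternatives, with an adjusted p of up to 0.129, among them the removal of any 1 of Li 1, 2, 4, 5 or 6 or LiAM 2 to 5. *Havcr1* had 0.336 to 0.644 CPM in LiAM libraries against a median of 1.62 CPM in Li libraries, and its log2 fold change of -2.24 (SE 0.55) had an adjusted p of 0.0998. It was called without Li 1 (-2.48, adjusted p = 0.0131) and by DESeq2 (adjusted p = 0.00896). *Spp1* (60.2 to 116 CPM in LiAM, 94.2 to 193 CPM in Li, log2 -0.80, adjusted p = 0.164) and *Lcn2* (1.85 to 3.18 CPM in LiAM, 2.97 to 4.24 CPM in Li, log2 -0.54, adjusted p = 0.223) did not pass the test, although DESeq2 called *Spp1* (adjusted p = 0.0387). Nor did *Cd44* pass (log2 0.28, 95% interval -0.17 to 0.73), *Vim* (log2 -0.28, 95% interval -0.60 to 0.03) or *Vcam1* (log2 -0.15, 95% interval -0.49 to 0.18).

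Against control at 28 days, where 16.6% of the genes were called, LiAM cortex had more *Cd44* and less *Vcam1*. *Cd44* measured 16.2, 17.9, 28.2, 16 and 30.2 CPM in LiAM libraries, 4.75-fold above control (log2 2.25, SE 0.25, adjusted p = 9.05e-06). *Vcam1* measured 25.2, 28.0, 24.7, 17.2 and 18.1 CPM in LiAM libraries, all below the lowest control library at 30.0 CPM (log2 -0.85, SE 0.17, adjusted p = 0.00148). *Clu* passed on its adjusted p of 0.0102 but not on size (log2 -0.48, SE 0.13). *Vim* missed the threshold (log2 -0.41, adjusted p = 0.0527) and passed it without control 1 (adjusted p = 0.00545). *Havcr1*, *Lcn2* and *Spp1* had log2 fold changes of 0.17, -0.13 and 0.22, with intervals that all include 0.

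The fall of *Vcam1* at 28 days came with other differences between control and the treated groups. Mitochondrial transcripts took 18.2 to 33% of the counts in control, 14.5 to 24.3% in Li and 15.8 to 22.7% in LiAM libraries. Control 1, at 18.2%, held the lowest *Vcam1* (30.0 CPM) and *Vim* (51.2 CPM) levels of the control libraries. Podocyte markers were lower in Li than in control in 4 of 5 genes, with a summed level of 472 to 606 CPM in Li and 592 to 1096 CPM in control libraries. Endothelial markers were lower in 2 of 5 (321 to 401 CPM in Li, 402 to 614 CPM in control), and 4 of 5 were lower in LiAM than in control. Of 6 fibroblast and pericyte markers, 3 were lower in LiAM (384 to 601 CPM) and 1 in Li (453 to 820 CPM) than in control (535 to 879 CPM). Markers of the thick ascending limb were higher in Li than in control in 4 of 5 genes (1237 to 2870 CPM in Li, 852 to 1699 CPM in control). None of these cell type markers was at 0 in any library, and the part of a different cell makeup in the *Vcam1* and *Vim* levels was not tested. Nor was it tested how the mitochondrial share relates to these levels, and it differs along with the groups. At 14 days none of the podocyte, endothelial or thick ascending limb markers was called in LiAM against Li or in Li against control. Of the 6 fibroblast and pericyte markers, 1 was higher and 1 lower in Li than in control at 14 days. LiAM against control had 1 lower, and LiAM against Li 0 called.

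**Figure D2:**
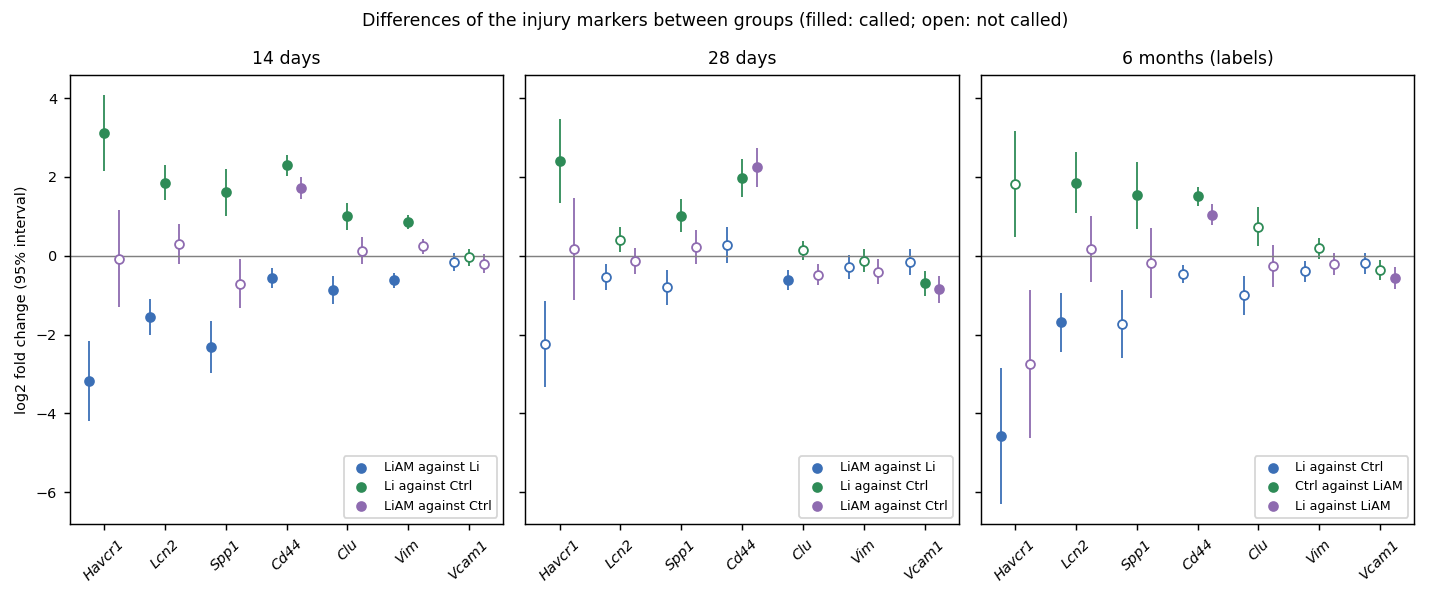
Log2 fold change with its 95% interval (vertical axis) for the 7 markers in the 3 comparisons of each study, filled where called and open where not, with the 6-month groups by their labels. *Cd44* in purple stands apart, at 1.72 and 2.25 for LiAM against control at 14 and 28 days, where *Havcr1* is at -0.07 and 0.17.

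At 6 months, 3 markers were higher in the libraries labelled control (Li in the authors' tables) than in those labelled LiAM (control in the tables), in a comparison that called 7.54% of 14532 genes. *Lcn2* measured 5.51, 8.32, 6.85 and 19.4 CPM in the libraries labelled control and 2.48, 2.78 and 3.08 CPM in those labelled LiAM (3.62-fold, log2 1.86, SE 0.39, adjusted p = 0.0107). That call was lost without the library labelled LiAM 1 (adjusted p = 0.0525). *Spp1* measured 238, 262, 185 and 776 CPM against 95.9, 151 and 133 CPM (log2 1.53, SE 0.44, adjusted p = 0.0368), and was lost in 5 of 15 alternatives, with an adjusted p of up to 0.157. Those were the removal of any 1 library labelled LiAM, the return of the left-out libraries and a fit of these groups alone. Without labelled control 4, at 776 CPM, the call held (adjusted p = 0.0181) but the log2 fold change of *Spp1* was 0.86. *Cd44* measured 27, 28.6, 23.5 and 31.0 CPM against 8.26, 9.61 and 11.3 CPM (log2 1.51, SE 0.13, adjusted p = 6.88e-05) and kept its call in all 15 alternatives.

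*Havcr1* reached 7.57, 4.14, 1.82 and 21.1 CPM in the libraries labelled control and 2.62, 1.5 and 3.26 CPM in those labelled LiAM, which overlapped (log2 1.82, SE 0.69, adjusted p = 0.0927). Its log2 fold change was 0.89 without labelled control 4 (adjusted p = 0.242), 1.15 with the left-out libraries and 2.16 without labelled control 3, where it was called (adjusted p = 0.0291). *Clu* (104, 150, 105 and 244 CPM against 95.7, 83.0 and 93.3 CPM) did not overlap between the groups but missed the threshold (log2 0.74, adjusted p = 0.0687), which it passed without labelled control 1 or 3 (adjusted p of 0.0324 and 0.0367). *Vcam1* was on the low side in the libraries labelled control, at 23.5 to 38.3 CPM against 40.1 to 44.1 CPM (log2 -0.36, adjusted p = 0.087). *Vim* had a log2 fold change of 0.19 (95% interval -0.08 to 0.45). The library labelled control 4 was the highest of its group in 6 of the 7 markers.

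In the libraries labelled Li (LiAM in the authors' tables), 2 markers were lower than in those labelled control (Li in the tables), and 1.99% of the genes were called. *Havcr1* measured 0.260, 0.560 and 0.237 CPM, at 6 to 15 counts, in the libraries labelled Li, against 1.82 to 21.1 CPM in those labelled control (23.9-fold lower, log2 -4.58, SE 0.88, adjusted p = 0.0226). *Lcn2* measured 2.81, 3.25 and 3.20 CPM against 5.51 to 19.4 CPM (log2 -1.69, SE 0.38, adjusted p = 0.0435). Without labelled control 4, at 21.1 CPM, the *Havcr1* call held (adjusted p = 0.0175) with a log2 fold change of -3.65. Both calls were lost in some alternatives: *Havcr1* in 4 of 15, without any 1 of the libraries labelled Li (adjusted p up to 0.0986) and with replicate number as a block, and *Lcn2* in 7 of 15 alternatives (adjusted p up to 0.157), among them without labelled control 2 or 3 or any library labelled Li. *Spp1* (98.4, 132 and 102 CPM, log2 -1.72, adjusted p = 0.0679), *Clu* (74.3, 80.9 and 70.2 CPM, log2 -1.0, adjusted p = 0.0654) and *Cd44* (19.7, 18.5 and 21.6 CPM, log2 -0.46, adjusted p = 0.0676) lay below every library labelled control and missed the threshold. *Spp1* was called in 5 of 15 alternatives (DESeq2, no filter on low counts, replicate number as a block, and without labelled control 1 or 4, with adjusted p of 0.0177 to 0.049), and its log2 fold change was -1.05 without labelled control 4. *Clu* was called in 4 of 15, the same without the block (adjusted p of 0.0225 to 0.0476). *Vim* and *Vcam1* had log2 fold changes of -0.40 and -0.20.

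Between the libraries labelled Li and those labelled LiAM (LiAM and control in the authors' tables), *Cd44* was higher, at 18.5 to 21.6 CPM against 8.26 to 11.3 CPM (log2 1.05, SE 0.13, adjusted p = 0.00052), and *Vcam1* lower, at 27 to 30.4 CPM against 40.1 to 44.1 CPM (log2 -0.56, SE 0.14, adjusted p = 0.0273). The comparison called 7.78% of the genes. The *Vcam1* call was lost in 6 of 14 alternatives (adjusted p up to 0.137): with the left-out libraries, with replicate number as a block, and without labelled Li 2 or 3 or labelled LiAM 1 or 3. Of 6 fibroblast and pericyte markers 3 were lower too, with a summed level of 344 to 402 CPM in the libraries labelled Li and 492 to 639 CPM in those labelled LiAM. No endothelial marker was called (summed levels of 366 to 395 CPM in labelled Li and 446 to 582 CPM in labelled LiAM). The part of these cells in the *Vcam1* level was not tested. *Havcr1*, at 0.237 to 0.560 CPM against 1.5 to 3.26 CPM, did not pass the test (log2 -2.75, SE 0.96, adjusted p = 0.0802). It was called in 4 of 14 alternatives, with DESeq2 (adjusted p = 0.0144), the left-out libraries (0.032), replicate number as a block (0.0362) and a fit of these groups alone (0.00443). *Lcn2*, *Spp1*, *Clu* and *Vim* had log2 fold changes of 0.16, -0.19, -0.26 and -0.21.

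The left-out library labelled LiAM 4 held 8.37 CPM of *Havcr1*, 5.10 CPM of *Lcn2*, 317 CPM of *Spp1* and 141 CPM of *Clu*, each above all 3 other libraries labelled LiAM, while its *Cd44* of 8.49 CPM lay among theirs and its *Vcam1* of 25.2 CPM below them. The left-out library labelled Li 4 had 0.517 CPM of *Havcr1* and 29.5 CPM of *Cd44*, a *Cd44* level above the 3 others labelled Li. Read by the labels alone, lithium against control at 6 months was labelled Li against labelled control, in which no marker was called higher. Read by the authors' tables, it was labelled control against labelled LiAM.

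Whether the differences changed between studies was tested as the difference of effects, in 1 fit of all 44 libraries and 15026 genes. Duration and study are the same split here, so a change with duration cannot be told apart from other differences between the studies. The Li effect was lower at 28 than at 14 days for *Lcn2* (difference of log2 fold changes -1.43, SE 0.34, adjusted p = 0.00969), *Vim* (-0.96, SE 0.18, adjusted p = 0.00194), *Clu* (-0.84, SE 0.24, adjusted p = 0.0294) and *Vcam1* (-0.63, SE 0.20, adjusted p = 0.041), among 4.23% of the genes called. With the left-out libraries put back, the calls for *Clu* (adjusted p = 0.053) and *Vcam1* (adjusted p = 0.0847) were lost, and that for *Vcam1* also without the filter on low counts (adjusted p = 0.0501). For *Havcr1*, *Spp1* and *Cd44* the effect was not shown to differ (-0.68, -0.57 and -0.31). The LiAM against Li effect was not called different between 28 and 14 days for any marker or any gene (0% called by edgeR). An unadjusted p under 0.05, which 9.52% of all genes had, was found in 3 of the 7 markers (*Lcn2* 1.02, *Spp1* 1.51 and *Cd44* 0.85), and DESeq2 called none of the 7 and 1 gene in all.

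For 6 months against 14 days, both namings were tested. With the groups as the authors' tables name them, no marker was called different in its Li effect (0.965% of the genes called by edgeR, 2 markers and 15.1% of all genes at an unadjusted p under 0.05, none of the 7 by DESeq2) or in its LiAM against Li effect (0.0732% of the genes called, 0 markers and 7.97% of all genes at an unadjusted p under 0.05, none by DESeq2). The 95% interval of the difference in Li effect was -2.92 to 0.35 for *Havcr1* and -0.75 to 0.76 for *Lcn2*. It lay below 0 for *Cd44* (-0.78, -1.37 to -0.20, adjusted p = 0.19) and for *Vim* (-0.66, -1.07 to -0.25, adjusted p = 0.111). With the groups as labelled, the Li effect differed in 6 markers, all lower at 6 months (*Havcr1* -7.65, *Lcn2* -3.51, *Spp1* -3.29, *Cd44* -2.72, *Clu* -1.97 and *Vim* -1.21), among 10.7% of the genes called. The LiAM against Li effect as labelled differed in 5 markers, all upwards (*Havcr1* 5.93, *Spp1* 2.49, *Lcn2* 1.39, *Clu* 1.12 and *Vim* 0.82), among 7.04% of the genes. With the left-out libraries put back, the *Vim* call was lost (0.53, adjusted p = 0.176), and the differences for *Havcr1* and *Spp1* were 6.54 and 3.16.

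Across the 9 groups, mean *Havcr1* levels were highest in the libraries labelled control at 6 months (8.65 ± 8.61 CPM, SD, n = 4) and in Li at 14 days (8.46 ± 6.32 CPM, SD, n = 6), which overlapped, and lowest in the libraries labelled Li at 6 months (0.352 ± 0.180 CPM, SD, n = 3). *Lcn2*, *Spp1*, *Cd44* and *Clu* shared an order at the top: Li at 14 days, then the libraries labelled control at 6 months. These neighbours overlapped for each of the 4 genes. The *Vim* level of Li at 14 days (123 ± 16.1 CPM, SD, n = 6) did not overlap with the next, 28-day control (82.3 ± 20.1 CPM, SD, n = 6), and the 8 groups from there down overlapped neighbour by neighbour. *Cd44* had its 3 lowest means in the groups named control in the authors' tables, and *Vcam1* its highest means in the 6-month libraries labelled LiAM (42.3 ± 2.09 CPM, SD, n = 3) and in 28-day control (40.9 ± 9.82 CPM, SD, n = 6).

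*Havcr1* had the widest spread of the 7 among the libraries of 1 group in 7 of the 9 groups, and *Spp1* in the other 2. Some of those *Havcr1* ratios rest on few counts: 4 to 10 in 28-day control and 6 to 15 in the 6-month libraries labelled Li. The lowest 28-day Li library held 4 counts. At such counts the sampling of reads also widens a ratio of highest to lowest, and its part was not tested. *Havcr1* varied 13.7-fold between the highest and lowest Li library at 14 days, 22.7-fold at 28 days and 11.6-fold among the libraries labelled control at 6 months, against 1.63-fold among the 14-day control libraries. *Cd44* varied 1.61-fold among the same 14-day Li libraries. Li 1 was the lowest of its group in 5 of the 7 markers at 14 days, and Li 2 the highest in 4.

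How alike the markers were over the libraries of a study differed between the studies. Likeness was measured as Pearson's r of log2 CPM. The points share treatment groups, so it describes how alike 2 patterns are and is not a test. At 14 days (17 libraries) *Havcr1*, *Lcn2*, *Spp1*, *Clu* and *Vim* were alike in every pair, with r of 0.70 to 0.93. *Cd44* was within that range with *Vim* (0.81) and *Lcn2* (0.74) and below it with *Havcr1* (0.59), *Clu* (0.67) and *Spp1* (0.42). At 28 days (17 libraries) *Havcr1* and *Spp1* had the highest r among those 5 genes, 0.64, and *Vim* was most like *Vcam1* (0.67). The r of *Cd44* with *Vcam1* was -0.21 at 14 days, -0.84 at 28 days and -0.63 in the 10 libraries of the 6-month study.

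**Figure D3:**
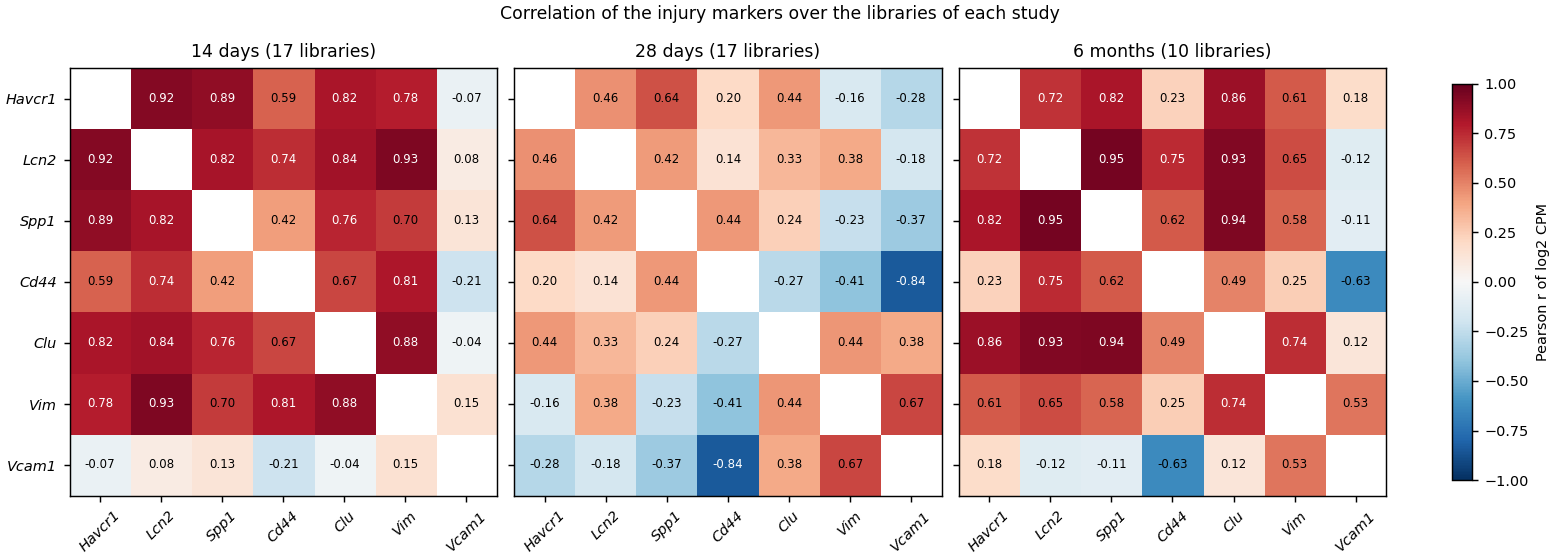
Likeness of the 7 markers over the libraries of each study, as Pearson's r of log2 CPM for each pair (colour and number). *Lcn2* and *Spp1* reach 0.95 at 6 months against 0.42 at 28 days, and *Cd44* with *Vcam1* is at -0.84 at 28 days.

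Among 8713 genes with a symbol, those most like each marker over all 44 libraries, after each study's mean was taken off, differed from marker to marker. *Lcn2* was most like *Sbno2* (r 0.86), *C4b* (0.85) and *Socs3* (0.85), the last of them a feedback inhibitor of cytokine signalling. *Havcr1* was most like *Spp1* (0.80), *Fga* (0.76), which encodes a fibrinogen chain, and *Lcn2* (0.76), and *Spp1* most like *Fga* (0.85), LOC103689965 (0.82) and *Havcr1*. Close to *Cd44* were *Ppl* (0.95) and *Cldn4* (0.94), which encode periplakin and a tight junction protein of epithelia. *Clu* was most like *Icam1* (0.79), *Lcn2* (0.79) and *Fxyd5* (0.77), *Vim* most like *Timp1* (0.90), *Anxa1* (0.88) and *Tmsb10* (0.87), and *Vcam1* most like *Sectm1a* (0.91), *Marcks* (0.91) and *Ifitm1* (0.89).

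Beside the 7, a list of 30 further genes of tubular injury and repair was followed, of which 27 have an identifier. An identifier exists only for genes that the authors' tables list as changed somewhere, so a high count of calls in this list is in part a matter of selection. Of all tested genes with a symbol, 17.9% were called in Li against control at 14 days and 3.37% in LiAM against Li. In Li against control at 14 days, 19 were higher and 1 lower of 27 tested, with a median log2 fold change of 1.10. The largest rises were those of *Krt18* (4.31, SE 0.23, adjusted p = 2.43e-10), a keratin of simple epithelium, *Cdkn1a* (4.15), the cell cycle inhibitor p21, and *Fgg* (3.20), a fibrinogen chain, and *Mdk* (-0.78), which encodes the growth factor midkine, fell. In LiAM against Li at 14 days, 9 were lower and 0 higher (median -0.63), among them *Fgg* (-2.34) and *Fgb* (-1.23).

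Part of that list stayed high under LiAM, as *Cd44* did. Of all tested genes with a symbol, 12.5% were called in LiAM against control at 14 days. At 28 days these shares were 13.8% in Li against control, 0.703% in LiAM against Li and 24.7% in LiAM against control. In LiAM against control at 14 days 9 of 27 were higher and 3 lower (median 0.17): *Krt18* (4.67), *Cdkn1a* (4.13) and *Gdf15* (2.36), a stress-induced cytokine, rose most, and *Tff3* (-1.29), *Sox9* (-0.87) and *Prom1* (-0.58) fell. At 28 days, of 26 tested, 11 were higher and 1 lower in Li against control (median 0.48), with *Krt18* at 3.59 and *Cdkn1a* at 3.20, and *Mdk* lower at -0.64. In LiAM against Li, *Krt18* was higher (0.81) and *Fga* lower (-0.72), and in LiAM against control 11 were higher and 3 lower (median 0.16), with *Krt18* at 4.40 and *Cdkn1a* at 3.69, and *Cxcl1* (-0.91), *Timp1* (-0.66) and *Mdk* (-0.58) lower.

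At 6 months, 11.3% of the tested genes with a symbol were called in labelled control against labelled LiAM. The share was 3.16% in labelled Li against labelled control and 12% in labelled Li against labelled LiAM. Of 26 list genes tested, the labelled control group had 14 higher and 1 lower than the labelled LiAM group (median 0.62). *Krt18* was at 3.07 and *Gdf15* at 1.71, and *Prom1* was lower at -0.63. In labelled Li against labelled control, 3 were higher (*Krt18* 1.05, *Gdf15* 0.97 and *Cdkn1a* 0.94) and 4 lower (median 0.05), among them *Timp1* (-0.82) and *Fga* (-0.80). In labelled Li against labelled LiAM, 9 were higher (median 0.23), led by *Krt18* (4.12), *Gdf15* (2.68) and *Cdkn1a* (2.21), and *Sox9* (-1.32) and *Timp1* (-0.60) were lower.

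**Figure D4:**
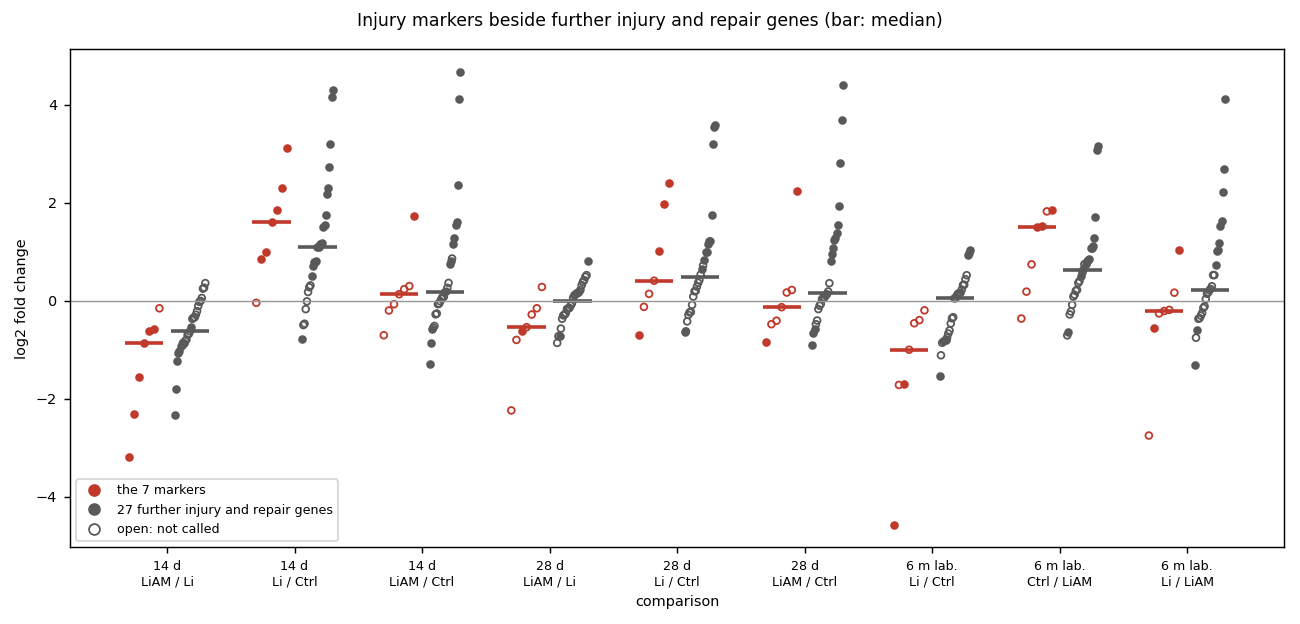
Log2 fold change (vertical axis) of the 7 markers (red) and of 27 further injury and repair genes (grey) in the 9 comparisons, filled where called, with bars at the medians. At 14 days the medians are -0.87 and -0.63 for LiAM against Li, and 1.61 and 1.10 for Li against control.

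Receptors, ligands and linkers of the markers were a further list of 18 genes, of which 13 have an identifier. In LiAM against control at 28 days 3 were higher and 2 lower, where 16.6% of all genes and 24.7% of those with a symbol were called. In Li against control at 28 days 2 were higher and 1 lower (9.07% of all genes and 13.8% of those with a symbol). In LiAM against Li at 14 or 28 days and in LiAM against control at 14 days 0 were called. Of genes with a symbol, 3.37, 0.703 and 12.5% were called there in turn. Each other comparison called 1 or 2 of the list, and 3.16 to 17.9% of genes with a symbol. *Itga4*, whose product binds VCAM1 and osteopontin, was higher in Li than in control at 14 days (0.70, SE 0.25, adjusted p = 0.043) and at 28 days (0.78), in LiAM than in control at 28 days (1.21), and in the 6-month libraries labelled control than in those labelled LiAM (0.72). *Itgav*, an osteopontin receptor chain, was higher at 28 days in Li (0.62) and in LiAM (0.89) than in control, and *Hyal1*, a hyaluronidase, in LiAM (0.98). *Des*, the muscle partner of vimentin, was lower in Li (-0.56) and LiAM (-0.82) than in control at 28 days and in the 6-month libraries labelled Li than in those labelled LiAM (-0.63), and *Mmp9* lower in LiAM than in control at 28 days (-1.12). *Itgb3*, which pairs with *Itgav*, was higher in labelled control than in labelled LiAM libraries (0.78) and lower in labelled Li than in labelled control libraries (-0.93).

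Markers of other cells differed in some comparisons, not always along with the injury markers. All 5 principal cell markers were lower in Li than in control at 14 days, with a summed level of 60.7 to 120 CPM in Li and 325 to 422 CPM in control libraries, and all 5 were higher in LiAM (247 to 312 CPM) than in Li. At 6 months the sum was 215 to 251 CPM in libraries labelled Li, 94.8 to 137 CPM in those labelled control and 297 to 404 CPM in those labelled LiAM. *Krt18*, of the injury list, had 6-month medians of 149.6, 83.2 and 10.02 CPM in the same order. Its control medians were 7.47 CPM at 14 days and 5.42 CPM at 28 days, against 162.5 and 67.5 CPM in Li. LiAM medians of *Krt18* were 189.4 and 117.4 CPM. By both measures the libraries labelled LiAM were nearest the short-study controls, as the authors' tables name them, although levels are only roughly comparable between studies. T cell markers were higher in Li than in control at 14 days in 6 of 6 genes (13.8 to 30.9 CPM in Li, 6.21 to 12.1 CPM in control), and macrophage markers in 3 of 7 (151 to 221 CPM in Li, 87.2 to 166 CPM in control). In LiAM against Li at 14 days 1 of 6 T cell markers was lower, and 0 of 7 macrophage markers were called. At 28 days 6 of 7 macrophage markers were higher in Li (60.9 to 134 CPM) than in control (40.7 to 100 CPM). All 7 were higher in LiAM (66.6 to 161 CPM) than in control at 28 days, and 0 were called in LiAM against Li. Proximal tubule markers, the main cells of the cortex, were not called in any 14-day comparison of Li, with 12422 to 14450 CPM in Li and 13858 to 16173 CPM in control libraries. Since *Cd44*, *Spp1*, *Vim* and *Vcam1* are made by leukocytes, endothelium or stroma as well as by tubules, the part of such cells in their levels was not tested. Only 1 of 7 neutrophil and 1 of 5 urothelial markers had an identifier.

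**Figure D5:**
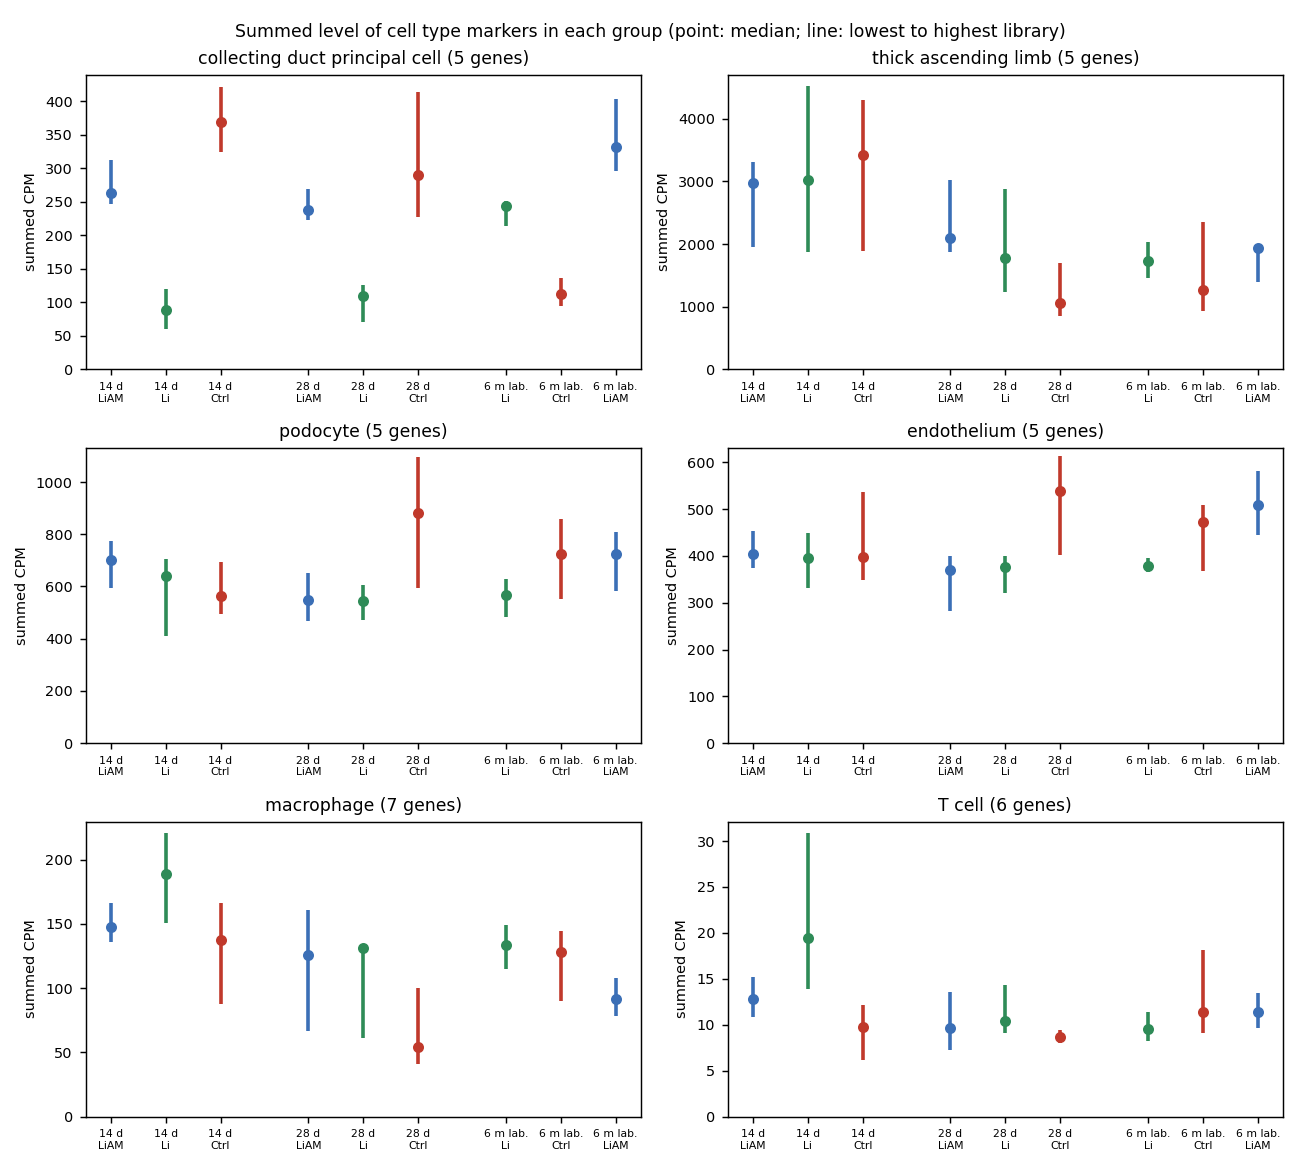
Summed CPM (vertical axis) of 6 lists of cell type markers in each labelled group, as the median (point) and the lowest to highest library (line). The principal cell sum is 60.7 to 120 CPM in Li at 14 days, below LiAM (247 to 312 CPM) and control (325 to 422 CPM), and the podocyte sum at 28 days is highest in control.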

How the data were processed

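RNA of rat kidney cortex was sequenced from poly(A) libraries in 47 samples. Per the labels, the authors trimmed reads with cutadapt (0.2.6), aligned them to Rnor 6.0 with HISAT2 (2.1.0) and counted them with featureCounts (2.0.0). For the trimmer and the counter, the versions in the methods text differ from these. The deposited values are raw counts per Ensembl gene, without normalization. The tables of DESeq2 results that the authors deposited hold a signal column (baseMean, the mean of counts divided by size factors) and log2 fold changes with their errors and p-values. The baseMean column was used to find the left-out libraries (median relative difference 6.46e-11 at 14 days, 6.57e-11 at 28 days, 6.28e-11 in the 6-month study), and of the deposited log2 fold changes only the sign, at 6 months, to compare the namings. Their values are not reported.

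The quasi-likelihood F test of edgeR 4.0.16 (R 4.3.3) was applied to the counts after filterByExpr and TMM scaling, in 1 fit of 3 groups per study, and between studies as interactions in a fit over 44 libraries. The standard error is the log2 fold change divided by the root of the F statistic, and intervals are at 95%. The thresholds are an adjusted p of 0.05 and an absolute log2 fold change of 0.5. CPM use TMM factors over all deposited libraries of a study. A single comparison of each study, and no interaction, was also run on simulated data, with an outcome that is not reported here. Alternatives were DESeq2 1.42.0, RLE size factors, no filter on low counts, all deposited libraries, no fold threshold, removal of 13 mitochondrial genes, leaving out each library, replicate number as a block and a fit of the groups compared alone.

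The 7 members and all gene lists were chosen with earlier results of these data known. Named genes are the 7, up to 3 called genes of largest change per direction and comparison from the injury and partner lists, and the 3 genes most like each marker. Some genes that this rule names are not reported here. P-values set a difference against the spread between libraries within groups, pooled over all groups of a fit and moderated across genes. They make no allowance for a spread that differs from group to group. No 2 libraries of a group were duplicates (the lowest dispersion ratio of a pair was 5.51). Promoter windows are those of RefSeq on GRCr8, which is not the build of the counts.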

Additional observations from a re-analysis of the deposited data

Results flagged for a closer look

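In 6 of the 49 combinations of a marker and a group of 4 to 6 libraries, the highest or lowest library stood apart from the rest. Chance alone puts about 1 in 20 such combinations past this mark. At 14 days it was LiAM 1 for *Clu* (110 CPM). At 28 days Li 1 had the highest *Vim* level (106 CPM), control 1 the highest *Cd44* level (6.94 CPM) and control 5 the highest *Lcn2* level (3.72 CPM). At 6 months it was labelled control 4 for *Spp1* (776 CPM) and labelled control 1 for *Vim*, at the low end (62.2 CPM).

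The effect of Li against control differed between the 28-day and the 14-day study, by the test of the difference itself, in *Lcn2* (-1.43), *Vim* (-0.96), *Clu* (-0.84) and *Vcam1* (-0.63, log2). With the groups as labelled, the Li effect at 6 months differed from that at 14 days in *Havcr1* (-7.65), *Lcn2* (-3.51), *Spp1* (-3.29), *Cd44* (-2.72), *Clu* (-1.97) and *Vim* (-1.21). The LiAM against Li effect as labelled differed in *Havcr1* (5.93), *Spp1* (2.49), *Lcn2* (1.39), *Clu* (1.12) and *Vim* (0.82). With the groups as the authors' tables name them, no marker was called different in either. With the left-out libraries put back, the *Vim* difference of 0.82 was no longer called (0.53).

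Of the libraries left out of the comparisons, 14-day LiAM 2 lay above every control library of its study in *Vim* (210 CPM), *Cd44* (14.5 CPM) and *Lcn2* (4.18 CPM). Its *Cd44* level was below and its *Vim* level above those of all 5 other LiAM libraries.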

How the results depend on the processing

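No called result changed direction. Among those not called, the log2 value of *Havcr1* in LiAM against control became 0.12 at 14 days and -0.023 at 28 days with replicate number as a block, and ranged over -0.45 to 0.10 at 14 days without 1 library. *Vcam1* in Li against control at 14 days ranged over -0.13 to 0.023 without 1 library. With all deposited libraries, *Lcn2* in labelled Li against labelled LiAM became -0.21, the *Vim* differences in LiAM against Li effect became -0.010 (28 against 14 days) and -0.12 (6 months against 14 days, as the tables name the groups), the *Vcam1* one 0.052 (28 against 14 days), and the *Lcn2* difference in Li effect (6 months against 14 days, as the tables name them) -0.28. These last 2 also crossed 0 with DESeq2 (0.00092 and -0.015), RLE size factors (0.0011 and -0.016) and no filter on low counts (0.0012 and -0.021), and *Lcn2* without mitochondrial genes (-0.011). The number of the 7 markers called in LiAM against Li at 28 days was 1, and became 3 with DESeq2, 0 with replicate number as a block, 0 with only these groups fitted, and 0 to 1 without 1 library. In labelled Li against labelled control at 6 months it was 2, and became 4 with DESeq2, 4 without the filter on low counts, 1 with all deposited libraries, 1 with only these groups fitted, and 0 to 5 without 1 library. Without 1 library, labelled control against labelled LiAM called 1 to 5 (3 with all) and labelled Li against labelled LiAM 1 to 2 (2 with all), and the other comparisons 5 to 6 (LiAM against Li at 14 days), 6 (Li against control at 14 days), 1 (LiAM against control at 14 days), 4 to 5 (Li against control at 28 days) and 2 to 3 (LiAM against control at 28 days). Of the 4 markers whose Li effect differed between 28 and 14 days, 2 remained with all deposited libraries. The main fits called 0.438% of all genes in LiAM against Li at 28 days and 1.99% in labelled Li against labelled control. The shares of all genes called under the alternatives are not reported here. These counts therefore do not separate a change in the markers from a change in calls over all genes. RLE size factors and the removal of mitochondrial genes changed no call, in 105 results each. In all comparisons 28 results lost their call when 1 library was left out, 14 gained one, 6 changed sign without a call and the rest did none of these, and where a group was left with few libraries its spread was taken from the fit of all groups. The cause of these changes was not tested. Same-numbered libraries did not deviate together (median r of 0.028 at 14 days, -0.018 at 28 days, -0.084 in the 6-month study), so the numbers were not taken as pairs. With replicate number as a block, 3 results lost their call (*Clu* in LiAM against Li at 28 days, *Vcam1* in labelled Li against labelled LiAM and *Havcr1* in labelled Li against labelled control, at -3.53 with an adjusted p of 0.0549), 2 gained one, 2 changed sign without a call and 56 did none of these. At 6 to 15 counts in the libraries labelled Li, the fold of *Havcr1* at 6 months is imprecise, and labelled control 4 alone moved it (-4.58 with and -3.65 without that library).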
